A study of Mus musculus with 24 samples.

Results

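Promoters that were bivalent in gonadal progenitor cells of both sexes, stayed bivalent in Sertoli cells and were no longer bivalent in pregranulosa cells were selected on the H3K4me3 and H3K27me3 peak lists themselves. A window of 2 kb on each side of the transcription start site (TSS), 4001 bp in all, was placed on 1 TSS per annotated gene of the 19 mouse autosomes (mm9). A window was called marked when a region of a list covered at least 1 bp of it, and bivalent when both marks were present. Of 34653 windows, 238 (0.687%) met the rule. They belonged to 206 protein-coding genes, 12 lincRNAs, 7 pseudogenes, 6 processed transcripts, 4 miRNAs, 2 snRNAs and 1 other RNA. Because neighbouring TSSs share sequence, the 238 windows lay in 202 distinct loci, and 34 of these loci held 70 of the windows.

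ChIP-seq for H3, H3K4me3 and H3K27me3 was performed in duplicate on cells purified by fluorescence from pooled embryonic gonads of C57BL/6 x CD1 mice, with Drosophila chromatin added as carrier. XY and XX progenitor cells carried SF1-eGFP and were collected at E10.5, Sertoli cells came from male gonads with Sox9-CFP at E13.5, and pregranulosa cells (granulosa cells in the labels) came from female gonads with TESM-CFP (TESMS-CFP in the study's methods) at E13.5. Each population is therefore what its reporter marks, and the series description says that the processed data came from both replicates, with 1 list per mark and population. No spread between replicates can be computed, no test compares populations, and the exact (Clopper-Pearson) 95% intervals below cover counting error only.

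H3K4me3 is deposited by Trithorax group complexes and is found at active and poised promoters, whereas H3K27me3 is deposited by Polycomb repressive complex 2 and maintains silencing. A promoter with both marks is called bivalent, a state in which genes are expressed at low levels and can later lose either mark. In the gonad, the same supporting cell precursor can become a Sertoli cell or a pregranulosa cell, and Wnt4, Rspo1 and beta-catenin signaling drive the ovarian choice. In sorted pools, both marks on the same chromatin and each mark in different cells of the pool cannot be told apart.

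The lists differ in depth, and 1 population lacks a record of it. The headers give between 6.47 M tags (XY progenitor, H3K27me3) and 49.3 M tags (XX progenitor, H3K4me3), and the pregranulosa lists carry no header. On the autosomes H3K27me3 regions covered 89.7 Mb in XY progenitor, 82.2 Mb in XX progenitor, 156 Mb in Sertoli and 130 Mb in pregranulosa cells. Of the promoter windows, 6290 were marked by H3K27me3 in pregranulosa, 6493 in XY progenitor, 6256 in XX progenitor and 7000 in Sertoli cells. Lower sensitivity of the pregranulosa list and absence of the mark cannot be told apart. All 8 Sertoli markers examined were H3K4me3-only in Sertoli cells. Not every gene of the longer testis pathway list was: Hsd17b1 and Ptgdr were bivalent there, Cyp26b1 had H3K27me3 only and Nedd9 had neither mark. Among 8 pregranulosa markers, Wnt4, Rspo1 and Bmp2 were H3K4me3-only in pregranulosa cells, 4 were bivalent there, including Foxl2 with H3K27me3 over all 4001 bp, and Runx1 had H3K27me3 only. In its closer view of Foxl2 the study reports loss of H3K27me3 at the TSS and gene body in these cells. The windows of Runx1 and Nedd9 had no H3K4me3 in any of the 4 populations. With 1 TSS per gene, any other start site of a gene was not examined, so these states hold for the window used. Of 8 germ cell markers, 4 were H3K4me3-only in pregranulosa cells and 2 in Sertoli cells, and the counts were 1 and 0 for 8 endothelial markers, 3 and 2 for 8 interstitial markers and 0 and 0 for 4 blood markers. Of the longer germ cell, endothelial, blood and interstitial lists only 4, 7, 2 and 6 windows were bivalent in the progenitors and Sertoli cells, and none was among the 238, counts too small to be read against the share over all windows. The germ cell gene Dppa3 had 4001 bp of H3K27me3 in the 3 other populations and 0 bp in pregranulosa cells, and missed the rule because XY progenitor cells had no H3K4me3 there. The part of other cell types in the results was not tested.

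The promoters of Wnt4, Rspo1, Axin2 and Bmp2 are printed first because these genes of the ovary pathway carried both marks in all 3 other populations and no H3K27me3 in pregranulosa cells. Each sequence is the 270 bases before the annotated TSS, the TSS and the next 29 bases, read 5′ to 3′ on the gene's strand from mm9, with CpG dinucleotides in capitals. All 4 genes lie on the plus strand, and the last 30 bases are the start of the first exon.
Wnt4, chr4:136833134-136833433: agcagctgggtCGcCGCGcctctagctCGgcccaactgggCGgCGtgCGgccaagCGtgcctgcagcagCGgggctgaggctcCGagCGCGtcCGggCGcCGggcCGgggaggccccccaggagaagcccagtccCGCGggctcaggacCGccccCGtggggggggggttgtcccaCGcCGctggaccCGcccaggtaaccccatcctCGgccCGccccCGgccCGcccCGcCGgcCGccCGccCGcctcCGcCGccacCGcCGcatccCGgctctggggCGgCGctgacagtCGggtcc
Rspo1, chr4:124663404-124663703: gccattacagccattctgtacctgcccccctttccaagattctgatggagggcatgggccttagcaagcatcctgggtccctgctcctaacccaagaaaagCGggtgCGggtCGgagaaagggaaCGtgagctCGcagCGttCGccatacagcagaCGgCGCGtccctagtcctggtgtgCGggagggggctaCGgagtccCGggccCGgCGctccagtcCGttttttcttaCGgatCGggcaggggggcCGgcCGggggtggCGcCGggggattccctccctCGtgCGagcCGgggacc
Axin2, chr11:108781393-108781692: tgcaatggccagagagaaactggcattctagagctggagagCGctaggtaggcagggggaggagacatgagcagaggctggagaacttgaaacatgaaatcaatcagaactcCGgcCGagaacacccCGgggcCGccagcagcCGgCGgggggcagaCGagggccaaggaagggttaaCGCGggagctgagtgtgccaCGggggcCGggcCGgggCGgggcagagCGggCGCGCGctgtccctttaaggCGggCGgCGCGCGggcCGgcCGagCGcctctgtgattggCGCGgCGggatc
Bmp2, chr2:133377625-133377924: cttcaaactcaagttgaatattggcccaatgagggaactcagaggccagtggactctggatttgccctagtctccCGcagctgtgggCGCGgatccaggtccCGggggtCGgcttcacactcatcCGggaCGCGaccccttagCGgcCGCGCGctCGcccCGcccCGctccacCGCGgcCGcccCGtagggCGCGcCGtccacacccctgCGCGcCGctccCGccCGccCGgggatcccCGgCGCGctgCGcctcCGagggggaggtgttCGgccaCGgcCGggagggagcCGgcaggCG
The 300 bases held 40 CpG at Wnt4, 25 at Rspo1, 29 at Axin2 and 38 at Bmp2. The median over the 200 protein-coding promoters left with H3K4me3 was 18 CpG, against 11 over all 21418 protein-coding autosomal promoters. It was 17 for promoters bivalent in all 4 populations and 20 for those with H3K4me3 and no H3K27me3 in all 4, so 18 is not particular to the selected promoters.

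Of the 4 miRNA genes among the selected promoters, Mir34b and Mir34c, which lie side by side and whose products restrain the cell cycle, were named after their values were seen. Of their mature sequences 3 are shown, from RefSeq (GRCm38.p6), without mmu-miR-34c-5p. The seed, bases 2 to 8, is in capitals.
mmu-miR-34c-3p: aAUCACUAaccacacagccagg
mmu-miR-34b-3p: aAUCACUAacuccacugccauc
mmu-miR-34b-5p: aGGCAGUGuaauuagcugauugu
The first and the second share their seed. H3K27me3 covered 3795, 4001, 3724 and 0 bp of the Mir34c window in XY progenitor, XX progenitor, Sertoli and pregranulosa cells, and H3K4me3 covered 3565, 3204, 2826 and 3891 bp. The Mir34b window overlaps it and gave 3260, 3954, 3189 and 0 bp of H3K27me3. The widest H3K4me3 region over both windows was 3825, 3204, 1569 and 3891 bp wide in the same order. The selected protein-coding gene 4833427G06Rik beside them had regions of the same widths. The marks can therefore not be assigned to the miRNA genes alone, and each TSS is only the annotated start of the miRNA gene.

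The mark left in pregranulosa cells was nearly always H3K4me3. H3K4me3 alone remained at 231 of the 238 promoters (97.1%, interval 94.0 to 98.8%) and H3K27me3 alone at 7 (2.94%, 1.19 to 5.97%), and no promoter lost both marks. Over all windows H3K4me3 was called most often in the pregranulosa list. It marked 17723 windows there, 17588 in XX progenitor, 17204 in Sertoli and 16850 in XY progenitor cells. How far the unknown threshold of the pregranulosa list bears on the 97.1% was not tested. The 238 were 6.16% of the 3861 windows bivalent in the other 3 populations. In the opposite direction, 522 of 4145 windows bivalent in the progenitors and pregranulosa cells were not bivalent in Sertoli cells (12.6%), and of these 383 kept H3K4me3. Both shares come from the lists that defined the windows and rest on lists of different depth, and nothing is read from them.

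**Figure D1:**
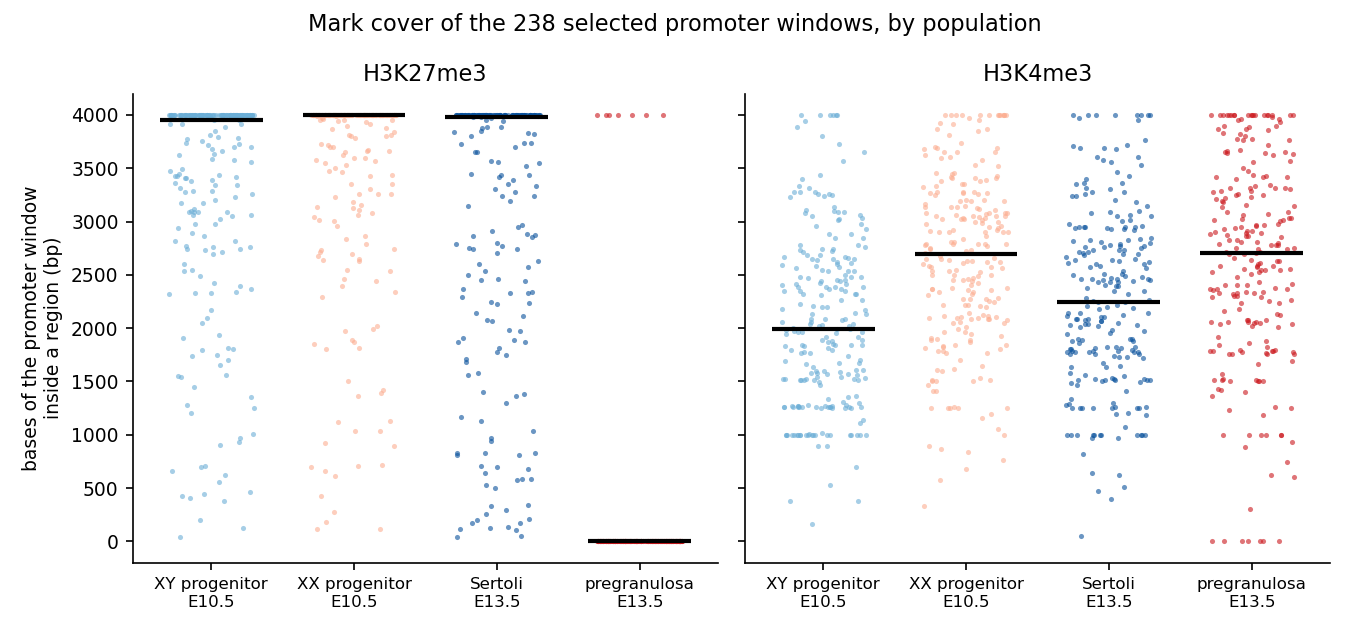
Bases of each 4001-bp promoter window inside an H3K27me3 region (left) or an H3K4me3 region (right), one point per promoter for the 238 selected promoters, in the 4 populations. The black line is the median. H3K27me3 in pregranulosa cells is at 0 bp for 231 promoters and above 0 for 7, and these 7 are at 0 bp for H3K4me3.

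H3K27me3 covered much of the window at these promoters in the other populations, but a region often ended inside it. Among the 231 promoters left with H3K4me3, the median H3K27me3 cover of the window was 3918 bp in the XY progenitors, 4001 bp in the XX progenitors and 3947 bp in Sertoli cells. The whole window was covered in 106, 128 and 108 of them in the same order, and in 60 it was covered in all 3 populations. At the 3623 promoters bivalent in all 4 populations the whole window was covered more often, in 2787, 3020 and 3050. At the other end, 18 had under 500 bp of cover in at least 1 of the 3 populations. The plot of window cover by population shows this tail of short overlaps.

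The threshold of the rule separates similar promoters at its margin. Smyd5, Ap1g1, Dbp and Lix1l were the selected protein-coding genes whose windows came nearest to a pregranulosa H3K27me3 region, at 22, 42, 167 and 169 bp. Just outside the rule, Lemd3, Klf10, Cntrob and Smarca2 had 62, 144, 163 and 171 bp of pregranulosa H3K27me3 in their windows.

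Secreted Wnt signals and their amplifier formed one group of the selected promoters. At Wnt4, the ligand required for ovarian development, H3K27me3 covered 4001 bp of the window in Sertoli cells and in both progenitor populations, and 0 bp in pregranulosa cells. H3K4me3 at Wnt4 covered 3086, 3329, 2374 and 3471 bp of the window in XY progenitor, XX progenitor, Sertoli and pregranulosa cells. Rspo1, which amplifies Wnt signaling through Lgr receptors, had the same 4001 bp of H3K27me3 in the 3 other populations and 0 bp in pregranulosa cells, and its H3K4me3 cover was 3433, 3851, 2644 and 3869 bp in the same order. Both genes thus had the least H3K4me3 in Sertoli cells and the most in pregranulosa cells. Wnt5b, a ligand that signals mostly without beta-catenin, had H3K27me3 over 3957 bp, 4001 bp and 4001 bp and lost it as well, while its H3K4me3 cover stayed between 2085 and 2239 bp.

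Intracellular components and targets of the Wnt pathway were found beside the ligands. Axin2, a scaffold of the beta-catenin destruction complex that Wnt signaling induces, differed from the ligands in the progenitors. H3K27me3 covered 1010 bp (XY) and 1361 bp (XX) of its window in the progenitors, all 4001 bp in Sertoli cells and 0 bp in pregranulosa cells. An H3K27me3 region remained 8.22 kb from its TSS in pregranulosa cells, upstream of the gene. Sp5, a zinc finger factor induced by Wnt signaling, had 4001 bp in each of the other 3 populations, and Tcf7, a beta-catenin binding factor, had 3561, 4001 and 3442 bp. Of the 41 Wnt pathway windows that were bivalent in the other 3 populations, 6 (14.6%) were selected, beside the 6.16% over all windows. The list was chosen with earlier results known, so this count only describes it. Foxl2, Lef1, Fst, Lgr5 and Irx3 were still called bivalent in pregranulosa cells, with 4001, 3635, 1284, 3816 and 4001 bp of H3K27me3 in their windows. The study reports that in these cells the mark was lost at the TSS and gene body of Foxl2 and at the TSS of Lef1. At Foxl2, it adds, promoter windows of this size did not show the loss.

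Genes of the ovary pathway other than Wnt genes included Bmp2, Gng13 and Emx2. Bmp2, a ligand of the Tgf-beta superfamily, had 3496 bp of H3K27me3 in XY progenitor cells, 4001 bp in XX progenitor and Sertoli cells and 0 bp in pregranulosa cells, where the nearest H3K27me3 region was 568 kb from its TSS. Gng13, a G protein gamma subunit, had 4001 bp in the 3 other populations, and its H3K4me3 cover was 1257, 2257, 1410 and 3561 bp in XY progenitor, XX progenitor, Sertoli and pregranulosa cells. In all, 7 of 22 eligible ovary pathway windows were selected (31.8%, beside 6.16% over all eligible windows). This list too was chosen with earlier results known, so the count only describes it. Wnt4, Rspo1, Axin2 and Sp5 are also in the Wnt pathway list, so the shares of both lists rest largely on the same windows. The testis pathway list had 1 eligible window and none was selected, since 8 of its 10 windows that were bivalent in both progenitors had lost bivalency in Sertoli cells only. That list is therefore no control for the ovary pathway list. Fstl3, a secreted antagonist of activin, was the other selected gene of the Tgf-beta and Bmp list (2 of 30 eligible windows, 6.67%).

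**Figure D2:**
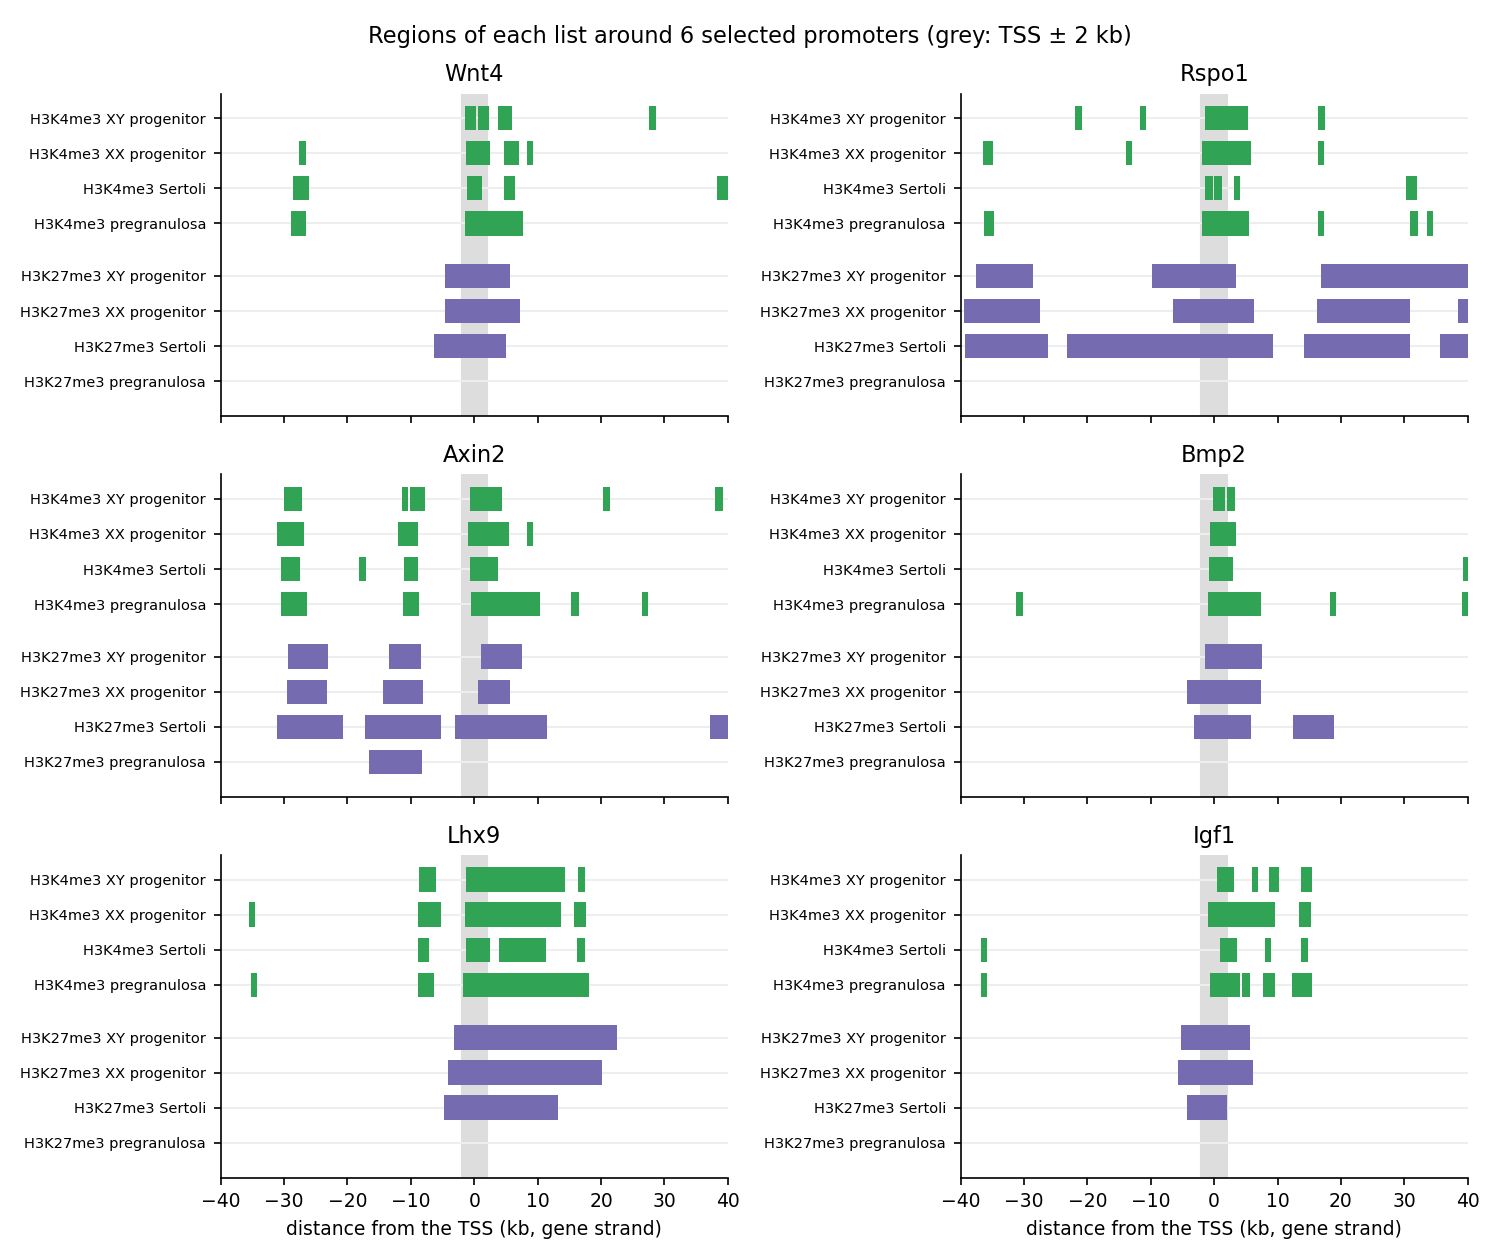
Regions of the 8 lists within 40 kb of the TSS of Wnt4, Rspo1, Axin2, Bmp2, Lhx9 and Igf1, with H3K4me3 in green and H3K27me3 in purple and the gene's direction to the right. The x axis is the distance from the TSS in kb, and the grey band is the 2 kb on each side of it. H3K27me3 regions cross the band in Sertoli cells and both progenitor populations at all 6 genes, and within this span the pregranulosa list has an H3K27me3 region at Axin2 only.

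Lhx9 and Emx2, homeobox genes needed to form the early gonad, were the 2 selected genes of 5 eligible early gonad windows, a list too short to read against the 6.16%. Lhx9 had 4001 bp of H3K27me3 in each of the other 3 populations, and the nearest pregranulosa H3K27me3 region was 1005 kb away. Emx2 had 4001 bp in both progenitor populations, 525 bp in Sertoli cells and 0 bp in pregranulosa cells. Emx2 therefore counted as bivalent in Sertoli cells through a short overlap, and its antisense lincRNA Emx2os shared the locus with 580 bp. Other core genes of the early gonad, Wt1, Nr5a1, Gata4 and Zfpm2, were H3K4me3-only in both E13.5 populations and so did not meet the rule.

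Other families gave few or no members, and with 6.16% selected over all eligible windows a count of 0 in most of these lists says little. From the developmental families, 0 of 24 eligible Fox windows, 0 of 7 Sox, 0 of 16 T-box and Pax, 0 of 36 bHLH and 0 of 20 Gata, Klf and Zic windows were selected, and 0 of 14 Fgf, 0 of 19 Hedgehog and Notch and 0 of 8 retinoic acid windows. The other homeobox list gave 3 of 111 (Lhx9, Emx2 and Cdx1) and the ion channels and transmitter receptors 3 of 143. The last 3 were Cacnb2, a calcium channel subunit, Chrm4, a muscarinic acetylcholine receptor, and Kcng4, a potassium channel subunit. Guidance genes gave 2 of 62, the ephrin Efna1 and the netrin Ntn3, and matrix genes gave 2 of 50, the laminin chain Lama3 and the metalloprotease Adamts19.

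The 7 promoters left with H3K27me3 only were Hoxa11, Hoxa11as, Lhb, Atp2c2, Apoa5, Gngt2 and Cdx1. Hoxa11, which patterns the limb and the reproductive tract, and its antisense lincRNA Hoxa11as share 1 Sertoli H3K27me3 region of 191902 bp, of which 99.7% was still covered in pregranulosa cells. H3K4me3 at Hoxa11 covered 1001 bp of the window in the XY and 2784 bp in the XX progenitors, 1285 bp in Sertoli cells and 0 bp in pregranulosa cells. Lhb, which encodes the beta chain of luteinizing hormone, had 1845, 2195, 624 and 0 bp in the same order, and the axial patterning gene Cdx1 had 1558, 2902, 1001 and 0 bp. All 7 promoters had at most 1001 bp of H3K4me3 cover in at least 1 of the 3 populations where it was called. Apoa5 had 697, 835 and 643 bp in the 3 other populations.

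The regions that covered these promoters in the other populations were mostly absent over their whole length in pregranulosa cells. The rule already leaves the 4001-bp window of these 231 promoters without pregranulosa H3K27me3. No distance below can therefore be under 2 kb, and the part of each region inside the window is empty by selection. From the TSS to the nearest pregranulosa H3K27me3 region the median distance was 49.6 kb (quartiles 12.7 and 127 kb, range 2.02 to 1296 kb). It exceeded 10 kb at 187 of 231 promoters, 100 kb at 69 and 500 kb at 8, and was at most 5 kb at 27. The Sertoli regions over these windows had a median width of 7626 bp. In 197 of 231 (85.3%) no base of the Sertoli region was covered in pregranulosa cells, and in 23 more than 50% was covered. The promoters that lost H3K27me3 in Sertoli cells only and kept H3K4me3 had 341 of 383 pregranulosa regions (89.0%) without any Sertoli H3K27me3 and a median distance of 53.3 kb to the nearest Sertoli region. The XX progenitor region was likewise without any pregranulosa H3K27me3 in 202 of 231.

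**Figure D3:**
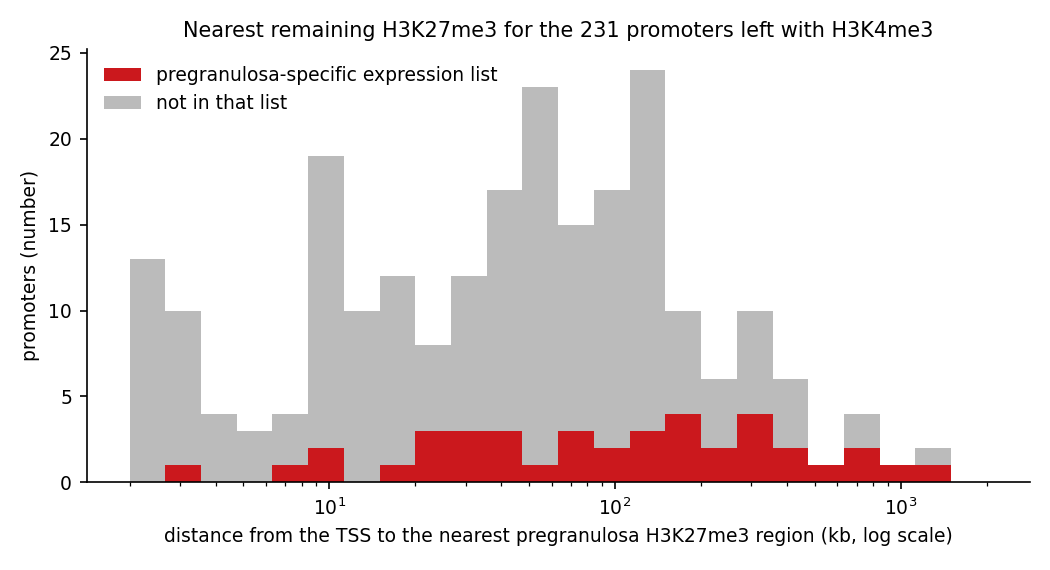
Distance from the TSS to the nearest pregranulosa H3K27me3 region in kb (log scale) for the 231 promoters left with H3K4me3, as a histogram. Red bars count the 40 promoters whose genes the study lists as pregranulosa-specific (median 117 kb) and grey bars stacked on them the other 191 (median 45.2 kb).

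Distances were longest at genes of several roles. The 12 protein-coding promoters with the largest distances were Magi2 (1296 kb), Lhx9 (1005 kb), Cacnb2 (806 kb), Gucy1a3 (727 kb), Bmp2 (568 kb), Slc15a1 (453 kb), Rnf152 (419 kb), Alcam (388 kb), Fam129a (367 kb), Kifc3 (365 kb), Adamts19 (334 kb) and Pcsk6 (328 kb). They include a membrane scaffold (Magi2), a subunit of the nitric oxide receptor guanylate cyclase (Gucy1a3), a peptide transporter (Slc15a1), a cell adhesion molecule (Alcam) and a proprotein convertase (Pcsk6). At the other end, the Sertoli regions over Keap1, Hemk1 and Dbp, named after their values were seen, were covered over 98.4%, 96.7% and 95.6% of their length in pregranulosa cells, so most of the region was still called and its end lay outside the window.

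The same lists can be read by distance from the TSS. At the TSS itself an H3K27me3 region was present at 85.3% of the 231 promoters in the XY progenitors, 87.9% in the XX progenitors, 78.4% in Sertoli cells and, by the rule, 0% in pregranulosa cells. At 5 kb downstream the shares were 30.3%, 34.2%, 39.4% and 3.46%, and at 5 kb upstream 28.6%, 25.5%, 39.4% and 9.09%. At 20 kb downstream they were 13.0%, 12.6%, 20.3% and 12.1%, so the pregranulosa list came close to the progenitor lists there and the Sertoli list lay above all 3.

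**Figure D4:**
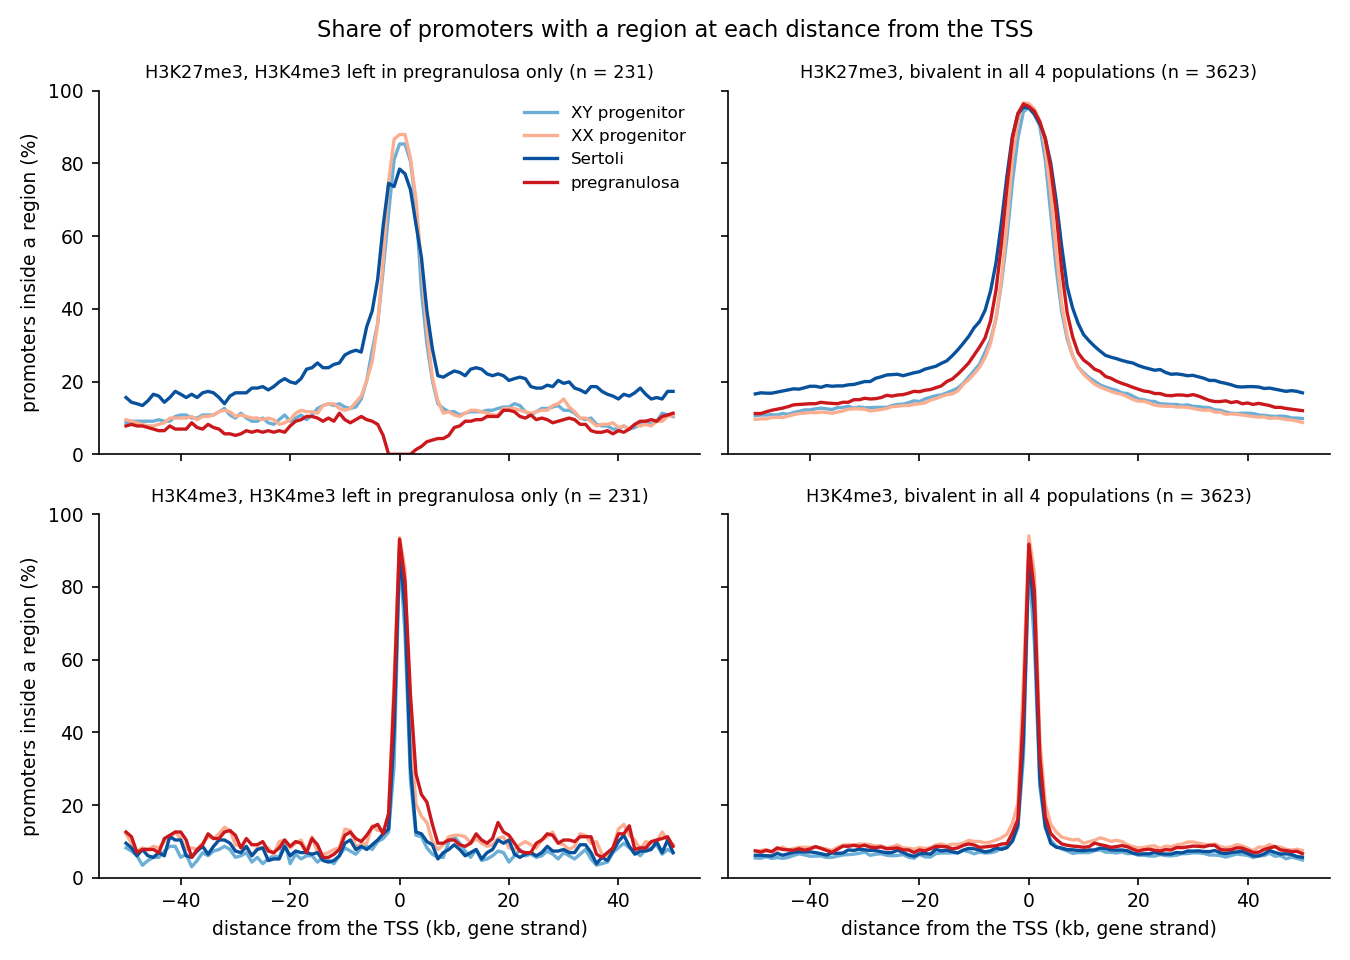
Share of promoters (%) inside an H3K27me3 region (top) or an H3K4me3 region (bottom) at each distance from the TSS (kb, on the gene's strand), for the 231 promoters left with H3K4me3 in pregranulosa cells (left) and the 3623 bivalent in all 4 populations (right), one line per population. On the left the pregranulosa H3K27me3 line is at 0% over the window that the rule used and stays at 3.46% at 5 kb downstream, where the Sertoli line is at 39.4%.

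H3K4me3 reached further at these promoters in pregranulosa cells than in Sertoli cells. Among the 231, the median window cover was 2033 bp in XY progenitor, 2726 bp in XX progenitor, 2286 bp in Sertoli and 2739 bp in pregranulosa cells. Cover was larger in pregranulosa than in Sertoli cells at 170 promoters, smaller at 51 and equal at 10. This count was not made at other promoters, and the direction was not particular to the 231. At promoters bivalent in all 4 populations the median cover was 2437 bp in pregranulosa and 2190 bp in Sertoli cells. Over the autosomes H3K4me3 regions covered 87.2 Mb and 73.2 Mb in the same order. The median H3K4me3 region over the window was 3215 bp wide in pregranulosa and 2374 bp in Sertoli cells, and at the 3623 promoters bivalent in all 4 populations it was 2568 and 2267 bp. Against XX progenitor cells the difference was small, with more cover in pregranulosa cells at 122 promoters and less at 98. These widths come from the lists that chose the promoters and from lists of different depth.

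Wide H3K4me3 regions were also counted. A region over 5 kb wide was present at 38 of 231 promoters in pregranulosa cells (16.5%, 11.9 to 21.9%), 12 in Sertoli cells (5.19%, 2.71 to 8.90%), 27 in XX progenitor cells (11.7%, 7.85 to 16.5%) and 10 in XY progenitor cells (4.33%, 2.10 to 7.82%). At the promoters bivalent in all 4 populations, 8.45% had one in pregranulosa cells and 5.88% in Sertoli cells. At 5 kb downstream of the TSS, 20.8% of the 231 promoters were inside a pregranulosa H3K4me3 region (15.7 to 26.6%) and 9.96% inside a Sertoli region. At 5 kb upstream the shares were 13.9% (9.67 to 19.0%) and 9.09%. Both sides were read on the same promoters, so separate intervals do not compare them, and the difference was not tested. The Lhx9 region was 19767 bp wide in pregranulosa cells and 3735 bp in Sertoli cells, and the Emx2 region was 22099 and 8153 bp. At Wnt4 the widths were 9098 and 2374 bp, at Axin2 10961 and 4365 bp, and at Bmp2 8318 and 3774 bp. Some regions were already wide at E10.5. Lhx9 had 15508 (XY) and 15164 bp (XX) there, and Emx2 had 17965 and 18774 bp. Wnt4 had 1725 and 3840 bp at that stage, Axin2 5144 and 6506 bp, and Bmp2 1946 and 4157 bp. The Rspo1 region was wider in the XX progenitors (7713 bp) than in pregranulosa cells (7405 bp), and Sertoli cells had 1352 bp. In the maps around the TSS, these wide pregranulosa regions lie in part over sequence that H3K27me3 covers in the other 3 populations. Part of the contrast is how regions were split, because Sertoli cells had separate H3K4me3 regions further downstream, of 7416 bp at Lhx9 and 1840 bp at Wnt4.

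Expression of the genes was not used by the rule. The study tabulates genes as pregranulosa-specific or Sertoli-specific at E13.5 from expression profiles made on other samples, and 5.05% of all 21418 protein-coding windows are in the first list and 6.26% in the second. Of the 200 protein-coding genes left with H3K4me3, 40 were listed as pregranulosa-specific (20%, 14.7 to 26.2%) and 3 as Sertoli-specific (1.50%, 0.310 to 4.32%). The first interval lies above the share over all windows. The second share is in part set by the rule, which keeps only promoters still bivalent in Sertoli cells, and its interval includes the 4.14% of promoters bivalent in all 4 populations, of which 4.94% were pregranulosa-specific. For promoters resolved in both lineages the shares were 12.1% and 14.4%, and for those that lost bivalency in Sertoli cells only 3.23% and 26.3%. Neighbouring genes share regions, so these genes are not independent of each other.

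**Figure D5:**
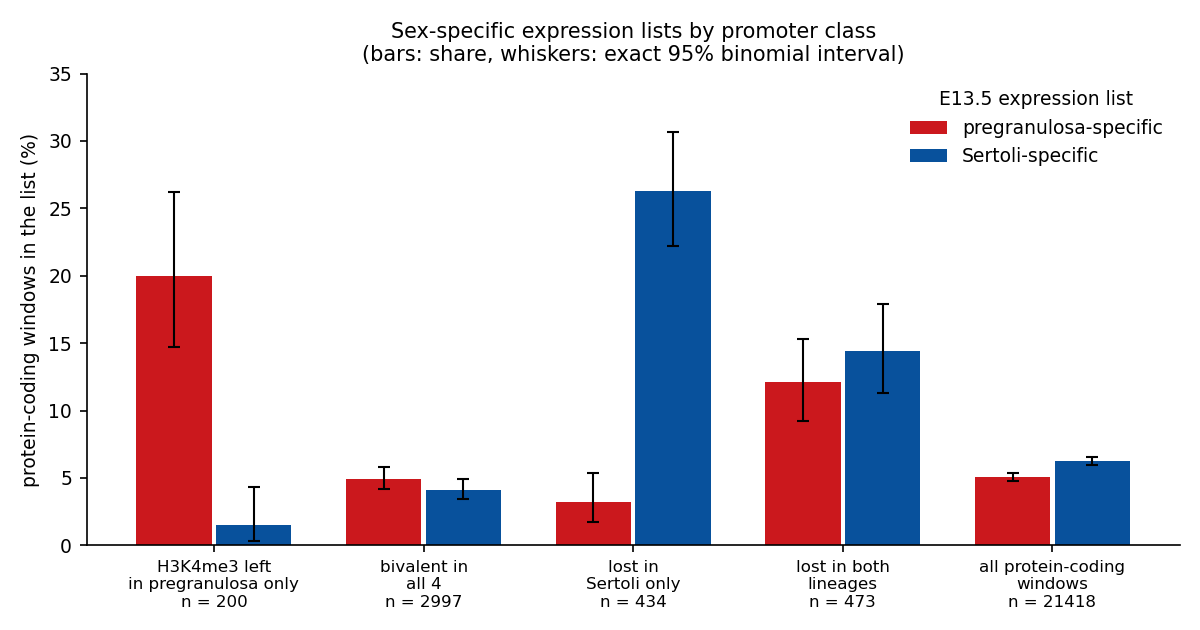
Share (%) of protein-coding promoter windows in the study's pregranulosa-specific (red) and Sertoli-specific (blue) E13.5 expression lists, by class of promoter, with exact 95% binomial intervals as whiskers. The promoters left with H3K4me3 in pregranulosa cells only are at 20% and 1.50%, and all protein-coding windows are at 5.05% and 6.26%.

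Read the other way, most pregranulosa-specific windows that were bivalent in the other 3 populations were still bivalent in pregranulosa cells. Of 188 pregranulosa-specific windows that were bivalent in the other 3 populations, 40 were no longer bivalent in pregranulosa cells (21.3%, 15.7 to 27.8%), and 148 still were. The share was 3 of 127 for Sertoli-specific windows (2.36%, 0.490 to 6.75%) and 163 of 2888 for windows in neither list (5.64%, 4.83 to 6.55%). In Sertoli cells, 114 of 238 Sertoli-specific windows had lost bivalency (47.9%, 41.4 to 54.4%) and 14 of 162 pregranulosa-specific ones (8.64%, 4.81 to 14.1%). All these shares leave out windows that lost bivalency in both lineages. These were 57 of the 259 pregranulosa-specific and 68 of the 309 Sertoli-specific windows bivalent in both progenitor populations, so loss in each lineage was more frequent than the shares show.

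The 40 listed genes went beyond the ovary pathway. With H3K27me3 over the whole window in all 3 other populations were Wnt4, Rspo1, Lhx9, Gng13, Cacnb2, Efna1, Igfbp2, which binds insulin-like growth factors, Krt18, an epithelial keratin, Podxl, a surface sialomucin, Lrrn1, a leucine-rich repeat protein, Gprc5a, an orphan receptor, Dapk2, a death-associated kinase, and 4 others, 16 in all. No base of the Sertoli region was left at 38 of the 40. H3K4me3 covered more of the window in pregranulosa than in Sertoli cells at 35, less at 4 and the same at 1. No such count was made at promoters outside the selection, where the median cover was also larger in pregranulosa cells. Named after their values were seen, Igf1, a growth factor, had H3K27me3 over 4001, 4001 and 3972 bp and H3K4me3 over 1583, 3021, 1074 and 2584 bp, and Cdkn1c, a cyclin-dependent kinase inhibitor, had H3K27me3 over 3094, 3870 and 4001 bp.

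The 3 Sertoli-specific genes had smaller H3K27me3 overlaps. Hsd17b12, a hydroxysteroid dehydrogenase, had 1352 bp in the XY and 1124 bp in the XX progenitors and 124 bp in Sertoli cells. Lphn1, an adhesion receptor, had 410, 614 and 583 bp, and Ptger1, a prostaglandin receptor, had 3429, 3262 and 2442 bp. With at least 500 bp of cover required for a mark, 1 of 188 such genes was Sertoli-specific (0.532%), and with a window of 1 kb on each side of the TSS it was 0 of 170, which allows a share of up to 2.15%.

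Sequence composition was also not used by the rule. The median GC content of the 200 protein-coding windows was 52.6% (quartiles 49.7 and 55.2%), against 52.5% for promoters bivalent in all 4 populations and 48.1% over all windows. Observed over expected CpG had a median of 0.437 (quartiles 0.339 and 0.535), against 0.464 (0.378 and 0.565) for promoters bivalent in all 4 populations and 0.371 over all windows, and these differences were not tested. The window of lowest ratio had 0.162 and that of highest 0.816, so CpG-rich and CpG-poor promoters were both present.

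Short motifs were counted on both strands within 500 bp of the TSS. No motif ends with 4 or more letters that begin another, on either strand, though CAAGGTCA and TGACGTCA both end in GTCA. CAAGGTCA, the site of SF1 (Nr5a1), was present at 7.50% of the 200 promoters (4.26 to 12.1%), 4.10% of those bivalent in all 4 populations and 5.39% of all. The forkhead core TGTTTAC was present at 8% (4.64 to 12.7%), 5.74% and 9.37%, and the TCF/LEF site CTTTGAT at 8% (4.64 to 12.7%), 8.11% and 11.1%. The SOX letters ACAATGG were present at 3% (1.11 to 6.42%), 6.17% and 9.56%. Letters of the kind bound by Gata4, AGATAAG, were present at 8% (4.64 to 12.7%), 5.77% and 8.24%. The CRE letters TGACGTCA were at 1.50%, 3.17% and 3.20%, the E-box CACGTG at 20.5%, 17.6% and 17.1%, and CCAATC at 33%, 31.8% and 33.1%. The interval of the SOX letters lies below the share over all promoters, and the intervals of the other 7 motifs include it. The SOX interval includes the 6.17% of promoters bivalent in all 4 populations, whereas the SF1 interval lies just above the 4.10% of those promoters. The SF1 interval includes the 5.92% of promoters resolved in both lineages and the 4.38% of those that lost bivalency in Sertoli cells only. The intervals are not corrected for reading 8 motifs, and neighbouring promoters share sequence, so no difference is read from them. Within the 300 printed bases, Axin2 holds CCAATC (on the other strand) and Wnt4, Rspo1 and Bmp2 hold none of the 8 motifs. Within 500 bp of the TSS, Axin2 holds CCAATC and the TCF/LEF letters, Rspo1 and Bmp2 hold CCAATC, and Wnt4 holds none. A match is only a match of letters.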

How the data were processed

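Native ChIP-seq on micrococcal nuclease-digested chromatin was done by the authors for H3, H3K4me3 and H3K27me3 in 4 cell populations with 2 replicates each, 24 samples in all. The submitters' processing notes name Trim Galore, Bowtie, SAMtools and HOMER, without versions. The deposited files are 8 peak lists on mm9, 1 per mark and population, and hold region positions. The headers of the progenitor lists name joined tag directories, and for the Sertoli and pregranulosa lists joining rests on the series description, while the methods speak of calls in each replicate. Their score column is a deposited score that was not used as a measure. Per the file headers, peaks were called in histone style against H3. The pregranulosa lists have no header, so their depth and thresholds are unknown.

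Regions were overlapped with windows of GENCODE genes (mm9) in Python 3.11.15 with NumPy 2.4.6, SciPy 1.17.1 and matplotlib 3.10.9. The code was tested on simulated data. Regions called at a minimum width cannot show shorter losses, and single lists give no replicate error. Genes listed by the study as sex-specific came from its tables of expression on other samples. Named genes were those of the gene lists, the 12 farthest from a pregranulosa H3K27me3 region, those left with H3K27me3, those at the threshold, and examples of the listed genes. Others are marked as named after their values were seen. Members and lists were chosen with earlier results of these data known.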

Additional observations from a re-analysis of the deposited data

How the results depend on the processing

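No paired analysis was possible because there is 1 list per mark and population for both replicates, and for the same reason no replicate could be left out. Each of 5 results was recomputed under 10 alternatives, of which 9 were planned and 1, leaving out the XY progenitor lists with the fewest tags, was chosen after seeing the data. Of 50 values, 45 stayed within their limits. The limits were a factor of 1.5 for the number of promoters, the main interval for each share and an equal value for the median. Some values could not move, since both sex list shares count protein-coding genes only and so repeat under that alternative. The median share of the Sertoli region still covered was 0 throughout, and the rule itself empties the part inside the window. The number of promoters ranged from 157 to 327, and the lowest, 157 against 238, came from windows that overlap no other gene's window. The share left with H3K4me3 only was 91.0% when the TSS base itself had to be inside a region and 91.9% when every list of a mark was reduced to the same number of its widest regions. The Sertoli-specific share was 0% of 170 with a window of 1 kb on each side and 0% of 146 at the TSS base, and at most 4.07% (7 of 172, interval 1.65 to 8.21%), with the widest 75% of regions, where the interval includes the 6.26% over all windows. The pregranulosa-specific share stayed between 16.3% and 26%. A planned overlap with the study's own promoter table was not run, because only part of that table was held.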

Other observations

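X-linked windows were outside the rule. Of 2599 X windows, 115 were bivalent in both progenitor populations and 77 in all 4, 36 lost bivalency in Sertoli cells only, 2 in both lineages and 0 in pregranulosa cells only. H3K27me3 was present at 138 X windows in the XY progenitors (5.31%) and 133 in Sertoli cells (5.12%), against 1421 in the XX progenitors (54.7%) and 1151 in pregranulosa cells (44.3%). In XX cells, H3K27me3 of an inactive X and of a bivalent promoter cannot be told apart in these lists.

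Among the autosomal promoters, 32 of the 238 belonged to genes that are not protein-coding, and 31 of these kept H3K4me3 in pregranulosa cells.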
